A study of Mus musculus with 9 samples.

Results

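The inhibitory checkpoint receptors of T cells were examined as 10 genes chosen by symbol, Pdcd1, Ctla4, Havcr2, Lag3, Tigit, Cd160, Btla, Cd244, Cd200 and Cd200r1. All 10 were among the 24391 genes listed, and 9 of them passed the filter on low counts in the batch-corrected table, Cd244 being the exception. Their RNA was sequenced in bulk from mouse CD8+ T cells (cytotoxic lymphocytes) that had been activated for 72 h and grown with the cytokine IL2, given at 100 U/mL. The libraries were 5 from cells activated without inhibitor (not treated, NT) and 4 from cells activated with an LSD1 inhibitor (LSD1i). LSD1 is a histone demethylase encoded by Kdm1a. The labels name neither the compound and its dose nor the strain, age or number of mice, and do not say whether replicates are separate animals or cultures. Each p-value therefore reflects the spread among these libraries, which may be technical. The comparison asks which of these receptors are higher or lower when LSD1 is inhibited during activation.

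Checkpoint receptors are surface proteins that restrain T cell activation. Most are induced by the T cell receptor signal itself, so freshly activated T cells carry several of them, and cells that stay stimulated in chronic infection or tumours keep many of them at high level. PD-1 recruits phosphatases to its tail, CTLA-4 competes with the costimulatory receptor CD28 for shared ligands, and CD200 is a ligand whose receptor CD200R1 carries the inhibitory signal.

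Before any comparison, the naming of the libraries needs stating. The deposited tables, 1 of raw counts and 1 of counts after a batch correction by the authors, held the same 9 libraries, but 4 of them carried opposite group names. Those that the raw table names NT 1, NT 2, LSD1i 1 and LSD1i 2 were named LSD1i 1, LSD1i 2, NT 1 and NT 2 in the batch-corrected table, by the genes at zero in each library. The labels do not say which names are right. Libraries are called here by their batch-corrected names, and each direction holds for those names unless the raw names are stated. The 5 libraries of replicates 3 to 5 carried the same name in both tables, so raw counts from them alone do not rest on the 4 libraries in question. Their batch-corrected values may, since the way the batch was corrected is not given. Levels are given in CPM, counts scaled to the library total with edgeR's TMM factors. Batch-corrected Trpm6, named after its values were seen, was at 0, 0.159 and 0.222 CPM in NT 3 to NT 5. It was at 20.2 and 23.5 CPM in LSD1i 3 and LSD1i 4. Of those in question, NT 1 and NT 2 were at 0.152 and 0, and LSD1i 1 and LSD1i 2 at 19.2 and 23.6. For this gene, those libraries thus lay with the groups of their batch-corrected names. Raw totals ran from 15163983 to 29245278 reads, and NT 1 stood apart with 13.3% of its raw reads in the ribosomal RNA precursor Rn45s, against 1.66% to 2.87% in the other 8. Markers of CD8+ T cells (Cd3d, Cd3e, Cd3g, Cd247, Cd8a and Cd8b1) summed to 1354 to 1579 CPM in NT and 1715 to 1779 in LSD1i. The 6 B cell markers summed to at most 0.468 CPM in any library, the 6 myeloid markers to at most 0.762, the 4 NK cell markers to at most 0.667 and the 4 mast cell markers to at most 0.178. The 3 markers of CD4+ and regulatory T cells (Cd4, Foxp3 and Zbtb7b) summed to 28.1 to 46.5 CPM in NT and 38.5 to 45.6 in LSD1i, nearly all of it Zbtb7b, since without that gene the sum was at most 0.468 CPM. The NK markers Ncr1 and Klra8 had 0 counts in every library. The CD8+ T cell sum did not overlap between the groups, and its part in the results that follow was not tested.

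Per kilobase of exon, Ctla4 was the highest of the 10 receptors, and its lowest library lay above the highest library of every other member. It stood at 421 ± 49.3 CPM per kilobase in the 5 NT libraries (mean ± SD) and 494 ± 55.5 in the 4 LSD1i libraries. Lag3, a receptor for MHC class II and other ligands, followed at 69.7 ± 18.6 in NT, and Pdcd1, which encodes PD-1, at 57.6 ± 9.52, ranges that overlapped. Cd200 (32.5 ± 6.84) and Tigit (31.7 ± 19.6) did not differ beyond their spread, nor did Cd160 (17.9 ± 3.01) and Btla (15.8 ± 2.196). Havcr2, which encodes TIM-3, was far lower at 2.43 ± 0.705 in NT and 4.499 ± 1.41 in LSD1i. Cd200r1 (0.217 ± 0.0878) and Cd244 (0.124 ± 0.0704) were near the limit of detection, with 4 to 14 and 1 to 20 batch-corrected counts per library. Exon lengths were those of the GENCODE M21 protein-coding transcripts, which may differ from the annotation the authors counted with.

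Of the 9 tested receptors, 0 were called higher and 0 lower in the batch-corrected counts (edgeR, quasi-likelihood, adjusted p under 0.05). The same test called 3.31% of all 11981 tested genes, 2.15% higher and 1.16% lower. With an unadjusted p under 0.05 there were 3, Havcr2, Pdcd1 and Btla, against 14.6% of all tested genes. Of the 9 log2 fold changes, 6 were above 0 and 3 below, with a median of 0.02 (all tested genes: −0.02). DESeq2 called 1 higher (Havcr2) and 1 lower (Pdcd1), where it called 5.57% of all genes, 3.34% higher and 2.23% lower. Limma voom with sample weights called 1 higher (Btla) and 2 lower (Pdcd1 and Cd200), where it called 8.84% of all genes, 5.22% higher and 3.62% lower. In raw counts under the same names, edgeR's quasi-likelihood test called 0 receptors with the batch as a term (1.85% of all genes), 0 in replicates 1 and 2 (0.0676%) and 0 in replicates 3 to 5 (0.969%). In the authors' deposited table, all 10 receptors were marked as not changed, as were 19914 of the 20052 genes listed there. The smallest adjusted p of a receptor in that table was 0.0711, for Havcr2. These are bulk libraries, in which fewer cells carrying a receptor and less of its RNA per cell cannot be told apart.

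**Figure D1:**
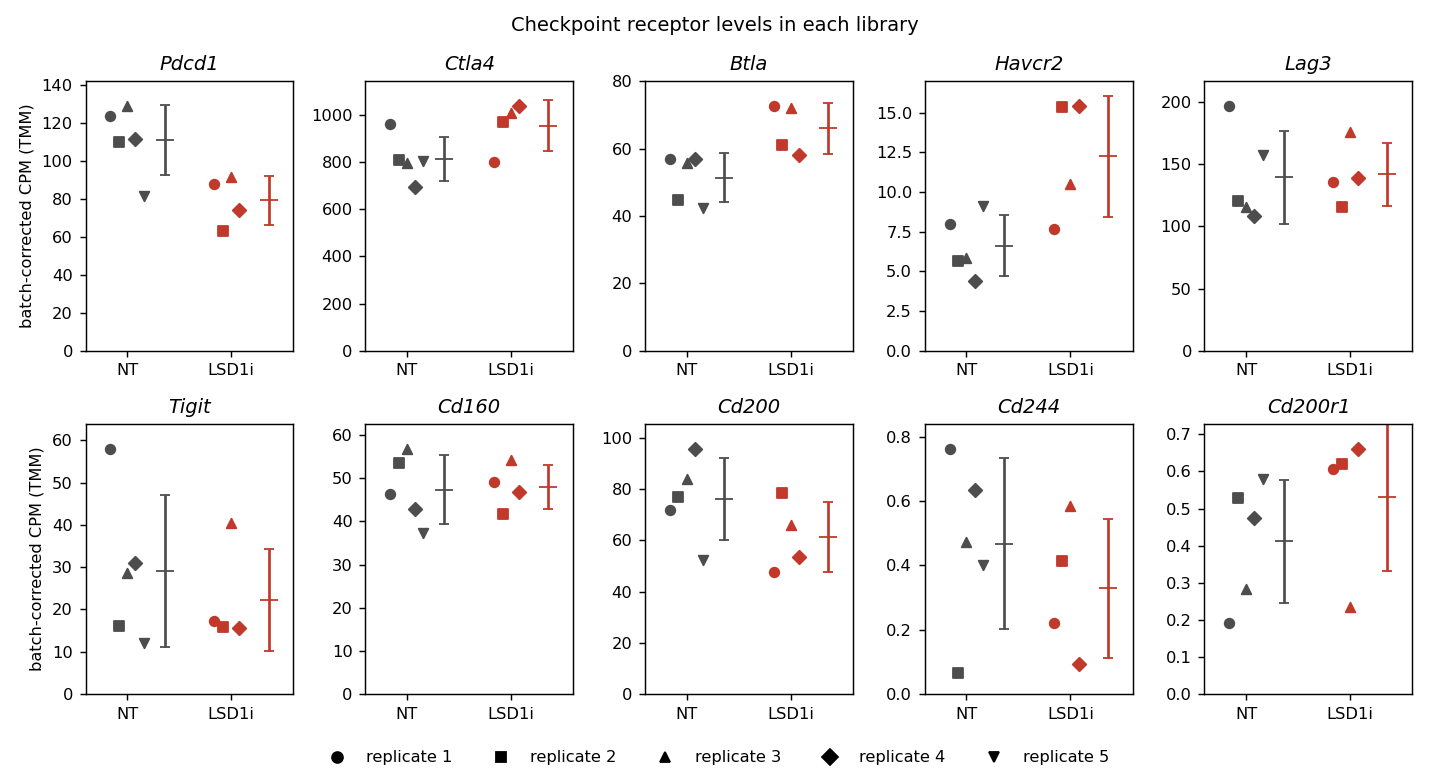
Batch-corrected CPM (TMM-scaled, linear axis from 0) of the 10 receptor genes in 5 NT (grey) and 4 LSD1i (red) libraries, with symbols for the replicate number and the mean ± SD beside the points. Btla is the gene whose groups do not overlap (at most 57.0 CPM in NT, at least 58.0 in LSD1i), and NT 1 is the highest library for Lag3 (197) and Tigit (58.0).

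Havcr2 encodes TIM-3, a receptor that marks terminally differentiated and exhausted T cells. It was at 8.01, 5.67, 5.83, 4.39 and 9.12 CPM in NT 1 to NT 5 and at 7.67, 15.4, 10.5 and 15.4 CPM in LSD1i 1 to LSD1i 4. The groups overlapped because LSD1i 1 lay below NT 1 and NT 5, while the other 3 LSD1i libraries lay above every NT library. NT libraries averaged 6.60 ± 1.92 CPM (SD) and LSD1i libraries 12.2 ± 3.83. The log2 fold change was 0.88 ± 0.25 (SE), or 1.85-fold (95% interval 1.27 to 2.69), and did not pass (adjusted p = 0.0865). It passed without NT 5 (log2 fold change 1.03, adjusted p = 0.0460) or without LSD1i 1 (1.05, adjusted p = 0.0493). Within raw counts, the log2 fold change was 0.73 ± 0.25 in replicates 1 and 2 and 1.05 ± 0.43 in replicates 3 to 5. With the batch as a term in the fit of raw counts it was 0.91 ± 0.28 (adjusted p = 0.182).

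Pdcd1 encodes PD-1, the receptor for PD-L1 and PD-L2. It was at 123, 110.0, 129, 111 and 81.7 CPM in NT 1 to NT 5 and at 87.6, 63.1, 91.8 and 74.2 CPM in LSD1i 1 to LSD1i 4. NT 5 lay among the LSD1i libraries, and the other 4 NT libraries lay above every LSD1i library. NT libraries averaged 111 ± 18.4 CPM and LSD1i libraries 79.2 ± 13.1. The log2 fold change was −0.49 ± 0.15, or 0.712-fold (95% interval 0.570 to 0.889), and did not pass (adjusted p = 0.110). Without NT 5 it passed (−0.58, adjusted p = 0.0258). The log2 fold change in raw counts was −0.62 ± 0.18 in replicates 1 and 2 and −0.35 ± 0.23 in replicates 3 to 5. With the batch as a term it was −0.47 ± 0.16 (adjusted p = 0.241).

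Btla, a receptor for the TNF receptor family member HVEM, was the member whose groups did not overlap, as for 7.86% of all tested genes, 4.41% with every LSD1i library above every NT library. It was at 57.0, 44.9, 55.8, 57.0 and 42.5 CPM in NT 1 to NT 5 and at 72.8, 61.1, 72.2 and 58.0 CPM in LSD1i 1 to LSD1i 4. The lowest LSD1i library lay just above the 3 highest NT libraries. NT libraries averaged 51.4 ± 7.14 CPM and LSD1i libraries 66.0 ± 7.60. The log2 fold change was 0.36 ± 0.12, or 1.28-fold (95% interval 1.07 to 1.54), and did not pass (adjusted p = 0.154). It was 0.36 ± 0.17 in raw counts of replicates 1 and 2 and 0.29 ± 0.20 in those of replicates 3 to 5. In raw CPM the groups overlapped. LSD1i 4 (56.7) and LSD1i 2 (58.5) lay below NT 3 (60.0) and NT 4 (62.5), and LSD1i 1 (60.3) lay below NT 4. Log2 CPM was centred on each gene's mean over the 9 libraries, for Btla and 9872 other genes whose log2 CPM averaged at least 2. The nearest to Btla in this centred pattern were Neurl3, an E3 ubiquitin ligase (root mean square difference 0.05), and Trp53inp1 (0.06), a stress-induced target of p53. Their log2 fold changes were 0.32 ± 0.11 and 0.32 ± 0.13, and neither passed (adjusted p = 0.162 and 0.281).

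The promoters of these receptors, the 3 with the smallest p-values, are shown for the letters that factors known to act on T cell genes can bind. Each is the stretch of 250 bases before the transcription start in RefSeq (GRCm38.p6, 5′ to 3′ on the gene's strand), and the table held a promoter for 8 of the 10 receptors. Capitals mark matches on either strand to GGAAA, the core bound by NFAT, to TGANTCA, the AP-1 site, and to AATCAC, part of the motif of the LSD1-recruiting repressor Gfi1.
Btla: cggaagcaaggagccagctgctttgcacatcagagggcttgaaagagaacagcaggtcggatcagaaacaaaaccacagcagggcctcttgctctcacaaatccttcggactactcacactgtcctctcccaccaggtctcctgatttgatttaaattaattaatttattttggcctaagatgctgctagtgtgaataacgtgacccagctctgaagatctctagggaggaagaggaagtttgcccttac
Havcr2: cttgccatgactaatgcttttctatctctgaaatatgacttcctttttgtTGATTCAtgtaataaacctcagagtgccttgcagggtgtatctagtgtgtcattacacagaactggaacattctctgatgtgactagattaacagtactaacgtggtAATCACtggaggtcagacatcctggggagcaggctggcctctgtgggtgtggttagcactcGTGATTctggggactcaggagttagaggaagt
Pdcd1: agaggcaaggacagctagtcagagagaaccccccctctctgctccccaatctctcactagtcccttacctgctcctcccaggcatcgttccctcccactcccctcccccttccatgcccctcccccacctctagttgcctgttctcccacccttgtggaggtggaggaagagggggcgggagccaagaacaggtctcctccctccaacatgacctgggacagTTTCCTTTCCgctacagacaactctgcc
These lie at chr16:45224087-45224336 (plus strand), chr11:46454681-46454930 (plus strand) and chr1:94052554-94052803 (minus strand). The Havcr2 stretch held 1 match to TGANTCA, 200 bases before the start, and 2 to AATCAC, 93 and 32 bases before it. The Pdcd1 stretch held 2 matches to GGAAA, 28 and 23 bases before the start, and the Btla stretch held 0 of the 3 motifs. Among 32851 promoters of the same length, 55.6% held GGAAA, 6.75% TGANTCA and 9.14% AATCAC. A match is a description of the letters and shows no binding.

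Ctla4 encodes CTLA-4, which binds CD80 and CD86. It was at 962, 808, 798, 695 and 807 CPM in NT 1 to NT 5 and at 801, 969.7, 1010.5 and 1041 CPM in LSD1i 1 to LSD1i 4. LSD1i 1 lay within the NT range, and NT 1 lay near the other LSD1i libraries. LSD1i over NT gave a log2 fold change of 0.23 ± 0.11, or 1.17-fold (95% interval 0.995 to 1.38), which did not pass (adjusted p = 0.362). In raw counts it was −0.02 ± 0.19 in replicates 1 and 2 and 0.41 ± 0.11 in replicates 3 to 5 (adjusted p = 0.168), and the difference between these sets did not pass (0.40 ± 0.20, adjusted p = 0.764). Ctla4 lies between Cd28 and Icos, genes of the same receptor family. Cd28 was at 0.01 ± 0.22 on the log2 scale and did not pass, and Icos, a costimulatory receptor, rose by 0.95 ± 0.08 (adjusted p = 5.79e-05). Under the raw table's names Icos was at 0.01 ± 0.32 and did not pass. Of the 18 protein-coding genes that lie next to the 10 receptors and are not receptors of the list themselves, 11 were tested and Icos was the 1 called, where 3.31% of all tested genes were.

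Cd200 encodes a surface ligand of CD200R1, and both genes lie on chromosome 16, as do Tigit and Btla. Cd200 was at 71.7, 77.04, 84.2, 95.8 and 52.5 CPM in NT 1 to NT 5 and at 47.8, 78.4, 65.9 and 53.5 CPM in LSD1i 1 to LSD1i 4. The groups overlapped at both ends, with NT 5 among the lowest libraries and LSD1i 2 among the highest. The log2 fold change was −0.31 ± 0.18, or 0.806-fold (95% interval 0.612 to 1.06), and did not pass (adjusted p = 0.493). Its next neighbour Btla had a log2 fold change of the opposite sign, as given above. Cd200r1 was at 0.191 to 0.578 CPM across NT libraries and 0.234 to 0.661 across LSD1i libraries. Its log2 fold change of 0.42 ± 0.39 had a 95% interval of −0.44 to 1.29, so neither a difference nor its absence was shown.

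Lag3 and Cd160 had log2 fold changes near 0. Lag3 was at 197, 120.1, 115, 108 and 157 CPM in NT 1 to NT 5 and at 136, 116, 176 and 139 CPM in LSD1i 1 to LSD1i 4. The whole LSD1i range lay inside the NT range. Its log2 fold change was 0.02 ± 0.18, or 1.01-fold (95% interval 0.769 to 1.34; adjusted p = 0.979), and 0.18 ± 0.14 without NT 1 (adjusted p = 0.601). Cd160, a receptor that shares the ligand HVEM with Btla, was at 37.2 to 56.8 CPM in NT (median 46.3) and 41.7 to 54.3 in LSD1i (median 48.0). Its log2 fold change was 0.02 ± 0.13, or 1.01-fold (95% interval 0.833 to 1.23; adjusted p = 0.972).

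Tigit, a receptor for CD155, varied more among untreated libraries than any other member with over 1 CPM. It was at 58.0, 16.1, 28.7, 31.0 and 11.97 CPM in NT 1 to NT 5, a 4.85-fold range, and at 17.2, 15.8, 40.4 and 15.7 CPM in LSD1i 1 to LSD1i 4, a 2.58-fold range. NT 1 and LSD1i 3 were the high libraries of their groups. LSD1i over NT gave a log2 fold change of −0.40 ± 0.44 (95% interval −1.36 to 0.56; adjusted p = 0.777), and 0.02 ± 0.36 without NT 1 (adjusted p = 0.985). In raw counts it was −1.77 ± 0.72 in replicates 1 and 2 and 0.11 ± 0.15 in replicates 3 to 5. The difference between these sets, 1.85 ± 0.76, did not pass (adjusted p = 0.764), and without NT 1 it was 0.09 ± 0.26. Without NT 2 it was 2.61. The corresponding difference was 0.74 ± 0.33 for Lag3 (adjusted p = 0.764), 0.23 ± 0.22 without NT 1 and 1.12 without NT 2. Each of these omissions leaves 1 NT library in replicates 1 and 2. Of the 10 receptors, 0 passed edgeR's quasi-likelihood test of this interaction, and 2 had an unadjusted p under 0.05. The same test called 0 of 11916 genes, and 4.88% of them had an unadjusted p under 0.05.

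Cd244, which encodes the SLAM family receptor 2B4, had 20, 1, 10, 12 and 9 batch-corrected counts in NT 1 to NT 5, and 4, 8, 10 and 2 across LSD1i 1 to LSD1i 4. These counts were too low for the filter of the batch-corrected fit. In raw counts, where it was tested with the batch as a term, its log2 fold change was −0.75 ± 0.59 (adjusted p = 0.760). The 95% interval of −2.06 to 0.56 shows that a difference was not detectable at this depth.

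**Figure D2:**
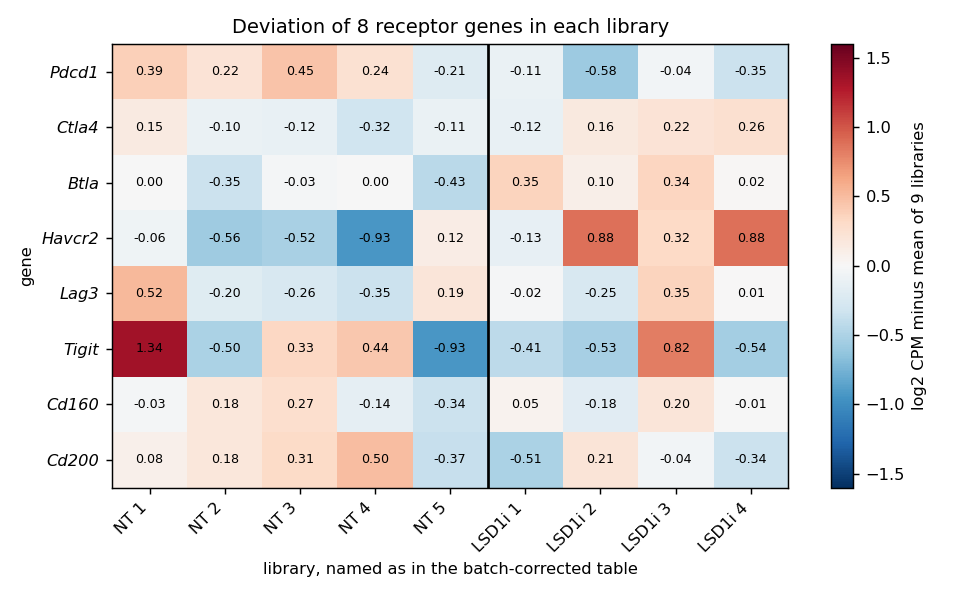
Log2 CPM of the 8 receptor genes above 1 CPM, as the difference from each gene's mean over the 9 libraries (colour and printed value), with NT libraries left of the line and LSD1i libraries right of it. Tigit spans the widest range, from −0.93 in NT 5 to 1.34 in NT 1, and NT 5 is below the mean for 6 of the 8 genes.

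Which library was highest or lowest differed among the receptors above 1 CPM. NT 5 was the lowest NT library for Pdcd1, Btla, Cd160, Cd200 and Tigit, and it was the highest NT library for Havcr2. NT 1 was the highest NT library for Ctla4, Lag3 and Tigit, and for Btla it was level with NT 4 (57.0 CPM in both). Of the LSD1i libraries, LSD1i 3 was the highest for Pdcd1, Lag3, Tigit and Cd160, whereas Havcr2 was highest in LSD1i 4 and LSD1i 2. The raw counts also separated the replicate sets for 2 of the 10 receptors, against 30.1% of all tested genes. Ctla4 was at 605 to 732 raw CPM in replicates 1 and 2 and 840 to 1236 in replicates 3 to 5. Lag3 went the other way, at 132 to 276 raw CPM in replicates 1 and 2 and 97.9 to 126 in replicates 3 to 5.

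**Figure D3:**
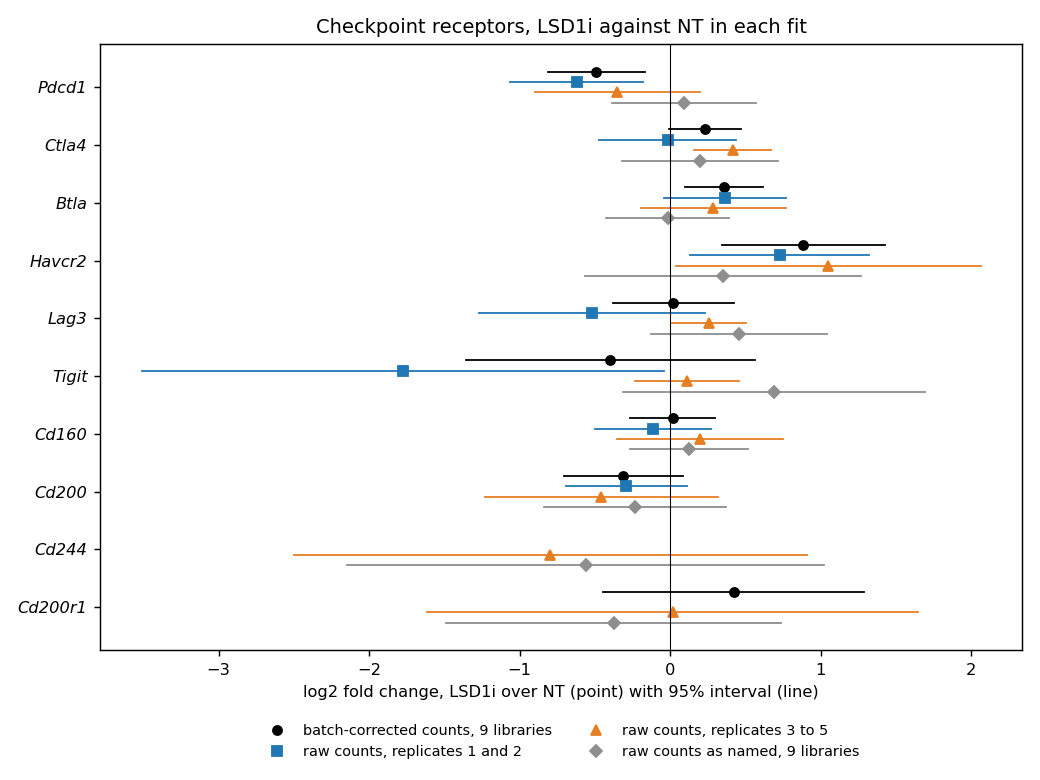
Log2 fold change of LSD1i over NT (points) with its 95% interval (lines) for each receptor in the batch-corrected counts, in raw counts of replicates 1 and 2 and of replicates 3 to 5, and in all raw counts as the raw table names them. Havcr2 lies above 0 and Pdcd1 below 0 in each of the first 3 fits, whereas under the raw names Pdcd1 is at 0.09 and Btla at −0.02.

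Under the raw table's own names, 0 of the 10 receptors and 0 of 11916 genes passed in edgeR's quasi-likelihood test (0% called), with 0 receptors and 1.44% of genes at an unadjusted p under 0.05. DESeq2 called 1 gene in all and 0 receptors. Pdcd1 was at 91.7 ± 23.9 raw CPM in the 5 libraries there named NT and 97.7 ± 23.3 in the 4 named LSD1i, and its log2 fold change was 0.09 ± 0.22. Havcr2 was at 8.08 ± 3.09 and 10.3 ± 6.50 (0.35 ± 0.42), and Btla at 56.8 ± 7.998 and 56.1 ± 14.9 (−0.02 ± 0.19). Lag3 (0.46 ± 0.27) and Tigit (0.69 ± 0.45) had the largest values above 0 under these names, with NT 1, there named LSD1i 1, as the highest library for both. Without that library they were 0.10 and 0.15. Pdcd1, Btla, Tigit and Cd200r1 (−0.38 under the raw names) thus had opposite signs under the raw and the batch-corrected names. Havcr2, Ctla4 and Cd200 kept their sign, though Havcr2 turned to −0.14 under the raw names when LSD1i 4 was left out, and Cd200 to 0.0022 without the library there named NT 4. Going by Trpm6 as given above, each group under the raw names holds libraries of both kinds. The log2 fold change of Gfi1 was 1.26 ± 0.09 under the batch-corrected names and 0.09 ± 0.41 under the raw names. That of Icos was 0.95 ± 0.08 and 0.01 ± 0.32. Gfi1 and Icos both passed under the batch-corrected names, so their smaller values under the raw names cannot show which names are right. With the names unsettled, a sign that turns under the raw names is no test of how stable a receptor's value is.

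Among the ligands of these receptors, 2 of 12 tested genes rose and 0 fell (14 were listed), against 2.15% of all tested genes called higher and 1.16% lower. Lgals3, which encodes galectin-3, a lectin that can bind LAG-3, was at 111, 102, 99.4, 77.9 and 104 CPM in NT 1 to NT 5 and at 219, 172, 229 and 221 CPM in LSD1i 1 to LSD1i 4. Every LSD1i library lay above every NT library, and the rise of 1.09 ± 0.12 on the log2 scale passed (adjusted p = 3.77e-04). It was 0.91 and 1.32 in raw counts of replicates 1 and 2 and of replicates 3 to 5. Pvr, which encodes CD155, the ligand of TIGIT and of the activating receptor CD226, was at 51.5, 34.3, 38.4, 30.0 and 38.8 CPM in NT 1 to NT 5 and at 59.3, 55.1, 76.8 and 61.1 CPM in LSD1i 1 to LSD1i 4. The groups did not overlap, and its rise of 0.71 ± 0.15 passed (adjusted p = 0.0264). It did not pass in raw counts with the batch as a term (adjusted p = 0.0775), nor without 1 library in 6 of 9 cases (NT 2, NT 3, NT 4, LSD1i 1, LSD1i 3 or LSD1i 4; adjusted p up to 0.0756). The PD-1 ligands, named for their role after their values were seen, did not pass in edgeR's quasi-likelihood test by group alone. Pdcd1lg2 (PD-L2) averaged 26.3 ± 4.13 CPM over NT libraries and 18.9 ± 1.62 over LSD1i libraries (−0.47 ± 0.13, adjusted p = 0.0698), and Cd274 (PD-L1) at 86.0 ± 21.8 and 75.1 ± 7.06. The groups of Pdcd1lg2 did not overlap (at least 21.9 CPM in NT, at most 20.4 in LSD1i), as for 7.86% of all tested genes. Pdcd1lg2 passed with DESeq2 (adjusted p = 0.0180) and limma voom (adjusted p = 0.0362). The median log2 fold change of the tested ligands was 0.21.

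Of the activating receptors and cytokines that share those partners, 1 of 5 rose and 0 fell (all genes: 2.15% and 1.16%), with a median log2 fold change of −0.18. Tnfsf14, which encodes LIGHT, another ligand of HVEM, the partner of Btla, was at 39.3 to 48.9 CPM across NT libraries and 55.8 to 59.9 across LSD1i libraries, ranges that did not overlap. Its rise of 0.41 ± 0.08 passed (adjusted p = 0.0200), and did not without NT 3 or any 1 of the 4 LSD1i libraries (adjusted p up to 0.0733). Lta, lymphotoxin alpha, did not pass (−0.79 ± 0.30, adjusted p = 0.223).

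Of 12 tested genes for other inhibitory receptors, 1 rose and 1 fell (all genes: 2.15% and 1.16%), with a median log2 fold change of 0.02. Klrc1, which encodes the NK receptor subunit NKG2A, was at 22.7 to 36.5 CPM across NT libraries and 70.9 to 135 across LSD1i libraries. Its rise of 1.80 ± 0.21 passed (adjusted p = 7.69e-04), while the NK cell markers summed to 0.457 to 0.667 CPM in NT and 0.176 to 0.361 in LSD1i. Lilrb4a, which encodes an inhibitory receptor of the leukocyte immunoglobulin-like family, was at 26.9, 33.7, 27.9, 39.8 and 54.4 CPM in NT 1 to NT 5 and at 12.8, 23.7, 10.6 and 14.6 CPM in LSD1i 1 to LSD1i 4. It fell by 1.24 ± 0.26 on the log2 scale (adjusted p = 0.0247), by 0.72 in raw counts of replicates 1 and 2 and by 1.68 in those of replicates 3 to 5. It did not pass in raw counts with the batch as a term (adjusted p = 0.0619), nor without NT 4, LSD1i 1, LSD1i 3 or LSD1i 4 (adjusted p up to 0.0934). Both genes have near-identical copies that can share reads, so their values are uncertain.

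**Figure D4:**
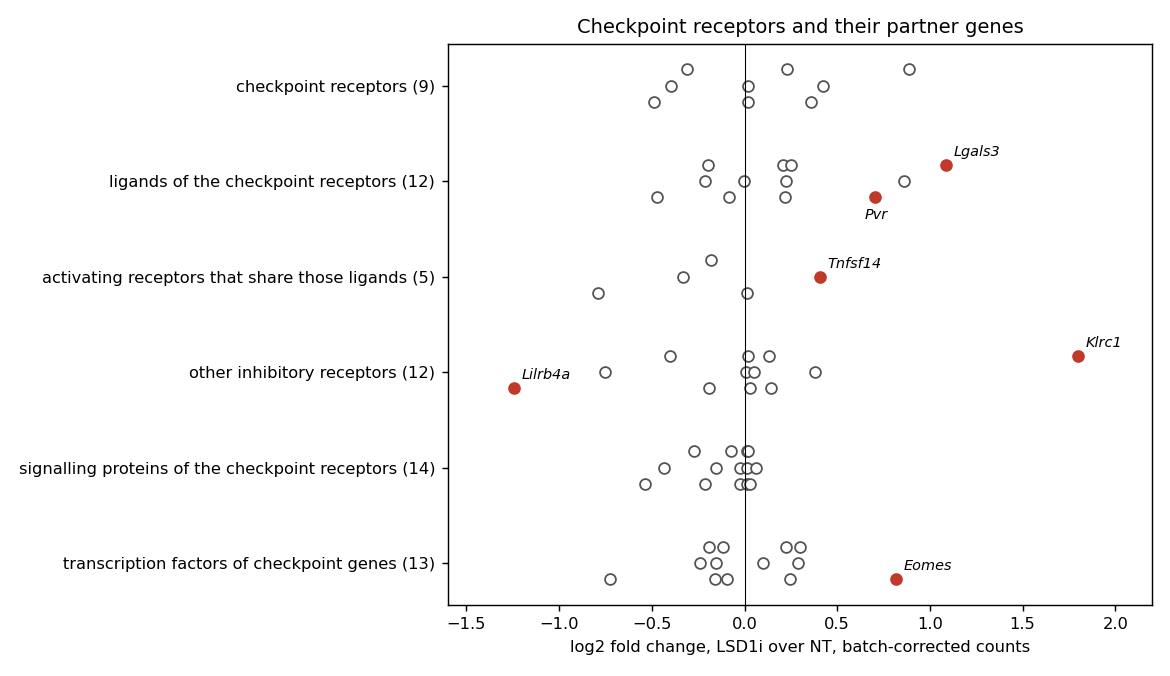
Log2 fold change of LSD1i over NT in batch-corrected counts (1 point per tested gene, spread vertically for legibility) for the checkpoint receptors and 5 lists of partner genes, the number tested in brackets. Filled, named points passed at an adjusted p under 0.05. None of the 9 receptors and none of the 14 signalling genes did.

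Downstream of the receptors, 0 of 14 tested signalling genes passed in edgeR's quasi-likelihood test (all genes: 3.31%), with a median log2 fold change of −0.02. Ptpn6, the phosphatase SHP-1, averaged 308 ± 30.1 CPM over NT libraries and 314 ± 31.1 over LSD1i libraries, and Ptpn11, the phosphatase SHP-2, at 134 ± 6.21 and 132 ± 5.13. Ptpn6 and Ptpn11 were named for their role after their values were seen. The smallest p-values of the list were those of Pag1, an adaptor that holds the kinase Csk (−0.44 ± 0.12, adjusted p = 0.0717), and Sh2d1a, the adaptor SAP of SLAM family receptors such as 2B4 (−0.54 ± 0.19, adjusted p = 0.187). These 2 were also the genes of the list with an unadjusted p under 0.05, against 14.6% of all tested genes. DESeq2 called 1 of the 14 (Pag1), where it called 5.57% of all genes. Limma voom called 2 (Pag1 and Sh2d1a), where it called 8.84% of all genes. Of 13 tested transcription factors known to act on checkpoint genes, 1 rose and 0 fell (all genes: 2.15% and 1.16%), with a median of −0.09. Eomes, a T-box factor, was at 39.1 to 49.9 CPM across NT libraries and 64.4 to 84.3 across LSD1i libraries, and rose by 0.82 ± 0.10 (adjusted p = 0.00108), by 1.07 and 0.70 in raw counts of the first and the second replicate set. Under the raw table's names Eomes was at −0.26 ± 0.39, the opposite sign, and did not pass. The other 5 called partner genes kept their sign under those names and did not pass either, at 0.58 for Lgals3, 0.34 for Pvr, 0.020 for Tnfsf14, 0.81 for Klrc1 and −0.91 for Lilrb4a. Irf4, a factor induced by T cell receptor signalling, did not pass in edgeR's quasi-likelihood test (0.30 ± 0.13, adjusted p = 0.318). Limma voom called Irf4 (adjusted p = 0.0161), where it called 8.84% of all genes, and DESeq2 did not (adjusted p = 0.286).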

How the data were processed

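Libraries came from RNeasy-purified RNA and a SMARTer kit, per the labels' protocols, and STAR, featureCounts, edgeR and the build mm9 are named in the submitters' processing notes. Versions, strand settings and how the batch was corrected: not given in the sources used here. Without strand, a gene's reads and those of an antisense or overlapping partner cannot be told apart. The authors deposited raw counts, and batch-corrected values used here as estimated counts (whole numbers as deposited). Their own comparison came as log2 fold changes, a test score (F) and p-values, deposited per gene and quoted only where named. There were 0 unnamed gene rows. Columns were assigned by name.

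Genes were tested with edgeR 4.0.16 (R 4.3.3; quasi-likelihood, TMM, filterByExpr by group with minimum count 10 and minimum total 15, Benjamini-Hochberg over all tested genes, threshold 0.05), by group alone on the batch-corrected table. The test charges nothing for the correction already made, so raw counts under those names were also fitted with the batch (replicates 1 and 2 against 3 to 5) as a term, within each set and with a group by batch interaction. The labels give no batch. The sets were recovered from the ratio of corrected to raw counts (pseudocount 0.5), whose deviations correlated at 0.755 to 0.980 within sets and −0.962 to −0.790 between them. DESeq2 1.42.0 and limma 3.58.1 (voom) were alternatives, as were other scalings, no filter, the replicate block and leaving out each library. Scripts were tested on simulated data. Errors of CPM are standard deviations and errors of log2 fold changes standard errors. The closest libraries of a group differed by more than sampling noise (chi-square per degree of freedom of 7.10 for NT 3 and NT 4). Each was counted as 1 replicate, though this value cannot show whether libraries came from separate animals, cultures or preparations.

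The receptors and partner lists were chosen with earlier results of these data known. Named genes are all receptors and, per list, every called gene and otherwise the 2 with the smallest p. For each receptor whose groups did not overlap, the 2 genes nearest in pattern are named.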

Additional observations from a re-analysis of the deposited data

Results flagged for a closer look

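Of 40 groups examined (20 named genes in NT and in LSD1i), 2 had a library far from the others by Dixon's criterion, about the number that chance gives at 1 in 20 groups. Tigit was at 40.4 CPM in LSD1i 3, whereas the next library, LSD1i 1, was at 17.2. Cd200r1 was at 0.234 CPM (4 batch-corrected counts) in LSD1i 3, whereas the next was at 0.607. Without LSD1i 3 the log2 fold change of Tigit was −0.84 and that of Cd200r1 was 0.66, and neither passed in edgeR's quasi-likelihood test (adjusted p = 0.473 and 0.552).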

How the results depend on the processing

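The count of 0 called receptors in the batch-corrected table became 1 higher without the low-count filter (Havcr2, adjusted p = 0.0436), 1 higher and 1 lower with DESeq2, and 1 higher and 2 lower with limma voom. With the replicate block it was 0 higher and 1 lower (Pdcd1, adjusted p = 0.00988), and with the block on raw counts under the batch-corrected names 1 higher and 1 lower (Havcr2, adjusted p = 0.0415, and Pdcd1, 0.00797). The ligand gene Pdcd1lg2 passed as lower in both of these block fits (adjusted p = 0.0440 and 0.0491). Deviations of same-numbered libraries correlated at −0.148, 0.464, 0.124 and −0.379, and not every library correlated best with its own number, so the numbers were not taken as pairs. Leaving out 1 library gave 0 to 1 higher and 0 to 1 lower, the total over all genes running from 219 to 432 and over the partner lists from 3 to 8. The 397 called genes became 667 with DESeq2, 1059 with limma voom, 326 with the replicate block, 84, 220 and 352 with raw counts by group alone, with the batch term and with the replicate block, 117 in replicates 3 to 5 and 8 in replicates 1 and 2. The 6 called partner genes became 12 with limma voom, 0 with raw counts by group alone, 2 in replicates 3 to 5 and 0 in replicates 1 and 2. Under the raw names, DESeq2 called 1 gene, and leaving out 1 library gave 0 in every case. For the difference between replicate sets, the 0 called genes became 320 without the low-count filter, with 1 receptor and 8 partner genes, and 0 to 401 without 1 library (an alternative added after the data were seen), with 0 to 2 receptors and 0 to 5 partner genes. The non-zero values came from leaving out NT 2, when Tigit (2.61, adjusted p = 0.00212) and Lag3 (1.12, adjusted p = 0.0272) passed. The cause was not tested.

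Under the batch-corrected names, signs turned for log2 fold changes that had not passed. Cd160 was at −0.088 with limma voom, −0.054 with the replicate block, −0.024 with the block on raw counts, −0.11 in replicates 1 and 2, and −0.052 to 0.092 without 1 library. Lag3 was at −0.11, −0.088 and −0.076 with raw counts by group alone, with the batch term and with the block, at −0.52 in replicates 1 and 2, and at −0.090 to 0.18 without 1 library. Tigit was at 0.11 in replicates 3 to 5 and −0.84 to 0.022 without 1 library, and in replicates 1 and 2 Ctla4 was at −0.015, Lta at 0.11 and Sh2d1a at 0.048. Under the raw names, leaving out 1 library gave −0.205 to 0.093 for Btla, −0.35 to 0.0022 for Cd200, −0.032 to 0.23 for Pdcd1 and −0.14 to 0.57 for Havcr2. For the difference between sets it gave −2.22 to 0.73 for Cd244, −0.46 to 0.058 for Cd200, −0.16 to 0.83 for Havcr2 and −0.34 to 0.10 for Btla.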
